A study of Homo sapiens with 6 samples.

Results

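Glycolysis, glucose uptake and lactate export were followed through 36 genes chosen by their symbols, of the 56305 genes in the count files. All 36 symbols are in the files. MOLM13 is a human acute myeloid leukemia cell line that carries an internal tandem duplication of FLT3 and the translocation t(9;11)(p22;q23), and both groups share this genotype. The cells were kept for 24 h either in the vehicle DMSO (3 libraries, also labelled as 1 μM) or in 1 μM ZW27941 (3 libraries), a PROTAC that links a METTL3 ligand to a ligand of the VHL ubiquitin ligase and so brings about the degradation of METTL3, the catalytic subunit of the m6A methyltransferase. The model is limited to 1 cell line, 1 dose and 1 time. The 6 libraries include none of the study's negative control compound, so loss of METTL3 and other actions of ZW27941 cannot be told apart. The labels do not say whether replicates were separate cultures, so the p-values measure the spread between these libraries, which may be technical. In bulk RNA, a change in the share of cells that express a gene and a change in RNA per cell cannot be told apart.

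Glycolysis splits a molecule of glucose into pyruvate in the cytosol and yields ATP and NADH without oxygen. Glucose enters through SLC2A carriers, is trapped by hexokinases, is committed by phosphofructokinase and is cleaved by aldolase, after which the lower enzymes from GAPDH to PKM recover the energy. Lactate dehydrogenase turns pyruvate into lactate, which leaves through SLC16A carriers. Several steps have isozymes with their own genes, and many of these genes are known targets of hypoxia-inducible factors and of MYC. Leukemia cells, like other fast-growing cells, use glycolysis even when oxygen is present.

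The libraries held from 143454176 to 178744976 counts on genes, more than the number of raw reads that the labels state per sample. The source of this gap was not tested, so these totals may overstate the independent fragments counted. The labelled cell type was checked first: all 12 markers listed for a monocytic, KMT2A-rearranged myeloid leukemia had a mean of at least 1 CPM (CPM, the count scaled to the size of the library after TMM normalization), with a summed level of 2825 to 2882 CPM in DMSO and 3084 to 3162 CPM on ZW27941. LYZ had the largest part of this sum (963 CPM in DMSO and 1159.5 CPM on ZW27941). The monocyte marker CD14 was the lowest of the list, at 1.54 CPM in DMSO and 1.17 CPM on ZW27941. It was called lower (edgeR adjusted p = 0.01115), against the direction of the sum. Its level was near that of the B cell marker CD79A (1.54 and 1.31 CPM). The T cell markers summed to at most 0.318 CPM and the epithelial markers to at most 0.0444 CPM. The B cell markers summed to 1.90 to 2.26 CPM in DMSO and 1.63 to 1.82 CPM on ZW27941, and the fibroblast markers to 1.90 to 2.02 CPM and 1.33 to 1.95 CPM, with 1 of 3 markers in each list at a mean of at least 1 CPM. HBB and HBA1 had no count in any library. Among the endothelial markers PECAM1, which monocytic cells also express, reached 259 CPM in DMSO and 327 CPM on ZW27941. In 1 library, ZW27941 replicate 3, reads that aligned to several places made up 5.25% of all reads tallied, against 3.63% to 4.07% in the others. Such reads were left out of the gene counts, and their part in the results was not tested.

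Most of the members whose level changed were lower on ZW27941, by small amounts. The 36 genes together took 1.91%, 1.97% and 1.97% of the gene counts in the DMSO libraries and 1.75%, 1.78% and 1.80% in the ZW27941 libraries, so the groups did not overlap. A total of 33 genes passed the expression filter. Of these, 16 fell and 5 rose, called where the adjusted p (edgeR, quasi-likelihood) was under 0.05, and 12 were not called. Among all 20399 genes tested, 13.8% were lower, 16.3% were higher and 30.1% were called in either direction. The members that rose were 15.2% of those tested, near the share of all genes, so their count is no result about the members. The median log2 fold change (ZW27941 over DMSO) was −0.075 over the 33 genes and −0.0019 over all genes tested, and no member moved by more than 0.42 in either direction. Without regard to sign the median was 0.1008 over the 33 genes and 0.1153 over all genes tested, so the members moved no further than a typical gene. All genes were not matched to the members by level, and a small shift is easier to call at a high count. In 16 of the 33 genes all ZW27941 libraries lay below all DMSO libraries and in 6 above them, where 19.9% and 21.7% of all genes tested did so (41.6% in either direction). At an adjusted p under 0.01 by edgeR, 12 fell and 5 rose, against 19.6% of all genes called and 8.46% called lower. Under upper quartile scaling 18 were lower and 5 higher, against 30.8% of all genes called and 17.9% called lower. That scaling raised the lower share of all called genes from 45.8% to 57.9%, and of the called members from 76.2% to 78.3%. With the replicate number as a block 15 members were lower, against 13.6% of all genes. The genes that fell and those that rose are seen apart in the plot of every library.

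**Figure D1:**
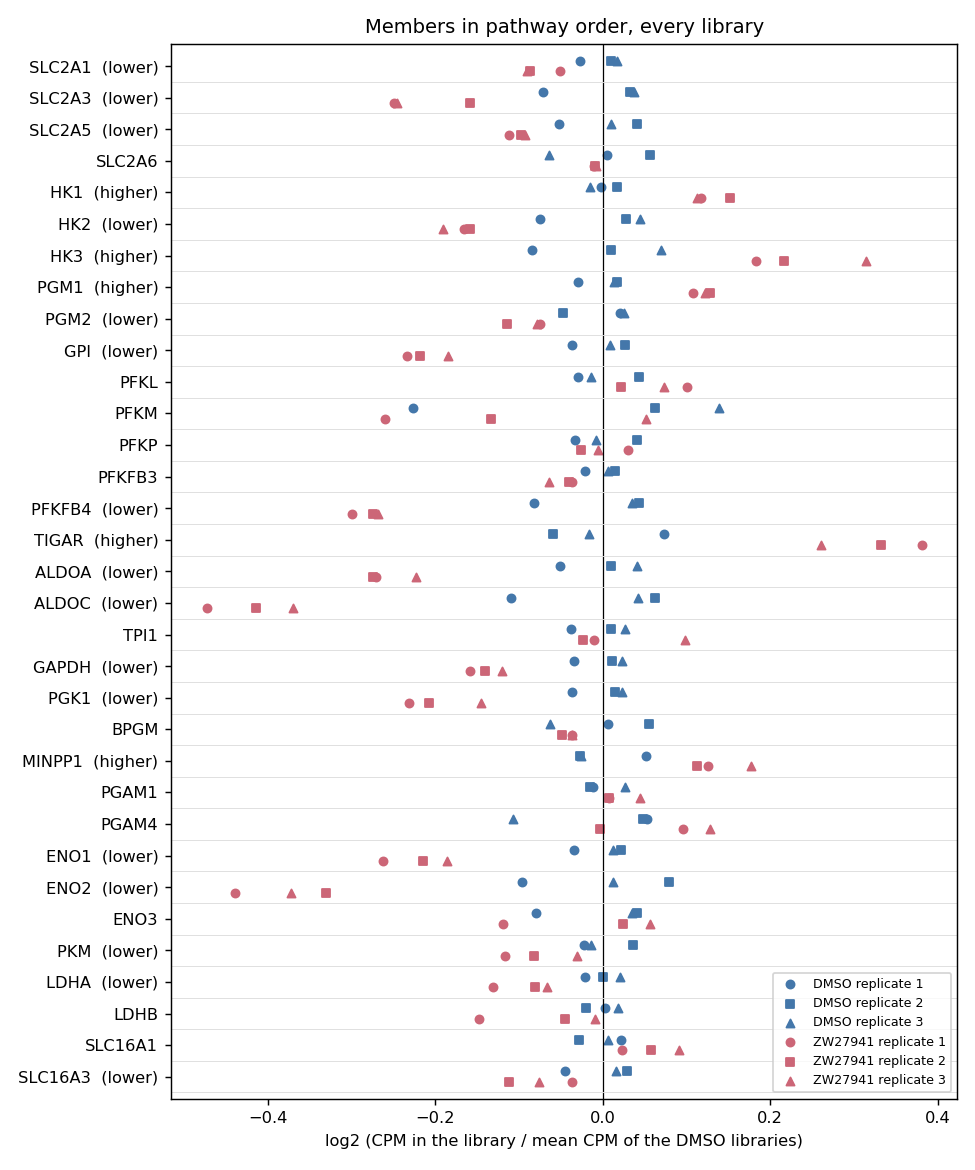
Each row is 1 of the 33 members tested, in pathway order, and each point is 1 library, as log2 of its CPM over the mean CPM of the DMSO libraries (blue DMSO, red ZW27941, with the marker shape giving the replicate). Words after a symbol give the call at an adjusted p under 0.05. The red points of ALDOC, ENO2, PFKFB4, ALDOA, ENO1, GPI and SLC2A3 lie to the left of every blue point, and those of TIGAR, HK3, MINPP1, HK1 and PGM1 to the right.

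In total, 10 of the 16 lower calls (SLC2A3, HK2, GPI, PFKFB4, ALDOA, ALDOC, GAPDH, PGK1, ENO1 and ENO2) and all 5 higher calls (HK1, HK3, PGM1, TIGAR and MINPP1) were made in each of the 13 other fits that changed the normalization, the filter, the test or the block or left out 1 library. The 6 other lower calls, of SLC2A1, SLC2A5, PKM, LDHA, SLC16A3 and PGM2, were lost in at least 1 of them. The members that fell also varied together within DMSO, where each of them but PGM2 was lowest in replicate 1. There ALDOC stood at −0.11 and ENO2 at −0.097 on the log2 scale against the DMSO mean. The 16 lower calls are thus not independent of each other, and the source of this shared spread was not tested.

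The promoters of the genes were compared because many of the members moved together. RefSeq promoters (GRCh38.p14, from 250 bases before to 50 bases after the start, first entry of each gene) were found for 33 of the 36 members, all but SLC2A3, PFKFB2 and SLC16A1. These 33 members have 62 entries, and whether the first is the start used in these cells was not tested. The letters ACGTG, the core shared by the binding motif of hypoxia-inducible factors and the E-box CACGTG, were searched on both strands. Over all members with a promoter they were in 11 of 33 (33.3%). They were in 9 of 15 promoters of members that fell (60.0%), in 1 of 5 of members that rose and in 1 of 11 of members not called. Of the 20399 genes tested, 10748 had a promoter entry, and the shares given for all genes tested cover only these. Among them 2821 held the letters (26.2%). The full E-box CACGTG, each of which also counts as ACGTG, was in 4 of the 15 promoters of members that fell (26.7%) and in 9.97% of those of all genes tested. Its share over all 33 members with a promoter was 12.1%. The GC box GGGCGG was in 73.3% of the promoters of members that fell, in 81.8% of those not called and in 66.9% of those of all genes tested. The groups were formed by the calls, so these shares are a description with no test, and a match is not a binding site.

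Promoters of 6 members are printed, chosen after their values were seen: ALDOC and ENO2, which had the largest falls, LDHA and PGK1, which hold 3 separate matches each, TPI1, which was not called and holds none, and TIGAR, which had the largest rise. Capitals mark ACGTG on either strand and the E-box.
ALDOC (chr17:28576846-28577145, minus strand): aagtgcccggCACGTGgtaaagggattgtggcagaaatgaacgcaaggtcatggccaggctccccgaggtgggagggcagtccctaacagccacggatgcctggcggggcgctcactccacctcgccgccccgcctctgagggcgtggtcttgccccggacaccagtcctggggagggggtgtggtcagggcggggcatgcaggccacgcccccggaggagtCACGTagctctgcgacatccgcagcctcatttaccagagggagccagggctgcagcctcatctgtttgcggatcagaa
ENO2 (chr12:6914330-6914629, plus strand): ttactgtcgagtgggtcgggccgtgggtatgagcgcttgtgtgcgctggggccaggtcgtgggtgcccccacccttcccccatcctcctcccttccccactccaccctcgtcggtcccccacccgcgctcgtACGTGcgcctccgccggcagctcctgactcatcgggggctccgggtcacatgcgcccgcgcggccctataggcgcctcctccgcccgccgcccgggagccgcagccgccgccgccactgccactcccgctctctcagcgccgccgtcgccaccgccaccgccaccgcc
LDHA (chr11:18394313-18394612, plus strand): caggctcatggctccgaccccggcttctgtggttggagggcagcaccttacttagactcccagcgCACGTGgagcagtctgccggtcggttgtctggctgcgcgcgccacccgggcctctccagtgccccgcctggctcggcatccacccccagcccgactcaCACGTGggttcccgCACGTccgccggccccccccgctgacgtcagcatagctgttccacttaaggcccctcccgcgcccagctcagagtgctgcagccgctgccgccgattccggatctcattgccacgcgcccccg
PGK1 (chrX:78103998-78104297, plus strand): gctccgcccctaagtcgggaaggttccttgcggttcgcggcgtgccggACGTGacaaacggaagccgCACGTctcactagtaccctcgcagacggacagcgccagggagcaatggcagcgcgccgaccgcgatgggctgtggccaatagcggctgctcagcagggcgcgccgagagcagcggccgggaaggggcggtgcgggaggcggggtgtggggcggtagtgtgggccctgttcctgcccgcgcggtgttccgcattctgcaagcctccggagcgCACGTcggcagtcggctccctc
TPI1 (chr12:6867281-6867580, plus strand): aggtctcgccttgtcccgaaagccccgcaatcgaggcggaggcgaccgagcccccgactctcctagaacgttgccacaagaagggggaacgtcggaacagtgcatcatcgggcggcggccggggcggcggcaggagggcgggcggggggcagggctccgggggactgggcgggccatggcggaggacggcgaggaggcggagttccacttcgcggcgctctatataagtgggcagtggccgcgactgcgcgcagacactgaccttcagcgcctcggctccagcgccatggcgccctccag
TIGAR (chr12:4320963-4321262, plus strand): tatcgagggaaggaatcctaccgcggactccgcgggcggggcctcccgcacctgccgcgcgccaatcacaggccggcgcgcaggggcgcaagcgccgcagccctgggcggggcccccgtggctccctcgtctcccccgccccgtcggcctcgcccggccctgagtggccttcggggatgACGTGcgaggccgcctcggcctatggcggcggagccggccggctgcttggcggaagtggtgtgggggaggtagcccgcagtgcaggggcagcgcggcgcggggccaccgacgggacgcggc

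ALDOC holds 2 marked runs, one of them an E-box, and ENO2 and TIGAR hold 1 run each. In LDHA, 2 of the 3 runs are E-boxes. The promoters of PFKFB4 (log2 fold change −0.28), ENO1 (−0.22), PKM, SLC2A1, SLC2A5 and SLC16A3, which also fell, hold no match and are not printed. The printed promoters are thus no fair sample of the members that fell.

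Levels of different genes were compared as CPM per kilobase of the longest transcript in GENCODE v29, which need not be the annotation behind the counts. On that scale GAPDH had the highest level in DMSO (2164 ± 45.1, SD, n = 3), followed by ENO1 (1299 ± 27.1) and ALDOA (899 ± 29). The lowest of the genes tested was PFKM (0.408 ± 0.0526), the muscle form of phosphofructokinase. The leading form of each step on this scale was SLC2A3 among the carriers (101 ± 4.22), HK2 among the hexokinases (72.3 ± 3.19), PFKP among the phosphofructokinases (81.2 ± 2.15), ALDOA, PGAM1 (302 ± 4.92), ENO1 and SLC16A3 (53.8 ± 1.47). The place of PFKP rests on the lengths used, 2769 bases for PFKP and 6007 for PFKL. In CPM, PFKL was above PFKP (276 against 225 in DMSO). LDHB stood at 710.2 ± 9.45 and LDHA at 615 ± 9.06, with lengths of 1538 and 2416 bases. In CPM the order was the other way, with LDHA at 1486 and LDHB at 1092 in DMSO. PKM (585 ± 13) and LDHA were neighbours on the scale per kilobase, while in CPM PKM was higher (1764 in DMSO). The SD gives the spread between libraries and not the error of a length, so the order of these genes was not tested.

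**Figure D2:**
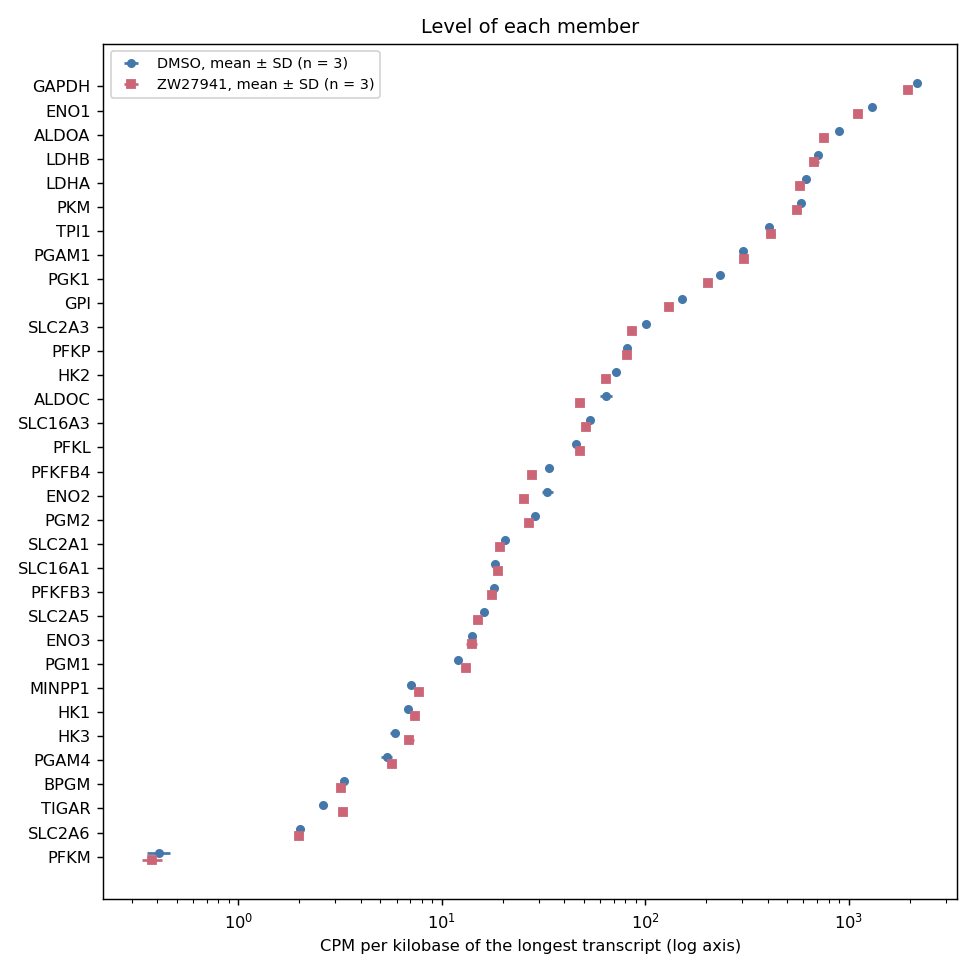
Each row is 1 of the 33 members tested, ordered by its level in DMSO, and the points give the mean CPM per kilobase of the longest transcript with its SD over 3 libraries (blue DMSO, red ZW27941) on a log axis. Levels run from 0.408 for PFKM to 2164 for GAPDH in DMSO, and the shifts on ZW27941 are small beside these distances between genes.

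Of the carriers that bring sugar into the cell, SLC2A3 (GLUT3), a high-affinity glucose carrier, had the largest change. It stood at 422, 454 and 455 CPM in DMSO and 373, 398 and 374 CPM on ZW27941. Every ZW27941 library was below every DMSO library, and the log2 fold change was −0.22 (standard error 0.0305, edgeR quasi-likelihood adjusted p = 1.19e-05) as the level fell by 14.0%. SLC2A1 (GLUT1), the widespread glucose carrier, was at 73.6, 75.5 and 75.9 CPM in DMSO and 72.4, 70.6 and 70.4 CPM on ZW27941. The groups did not overlap but lay close, with a log2 fold change of −0.076 (standard error 0.0260, edgeR quasi-likelihood adjusted p = 0.0303). Without DMSO replicate 3 the adjusted p of SLC2A1 was 0.123 by the same edgeR test, without DMSO replicate 2 it was 0.0897 and without ZW27941 replicate 2 it was 0.0936. The call was also lost with library-size scaling alone (edgeR adjusted p = 0.0670) and with no filter on low counts (0.0716). SLC2A5 (GLUT5), a fructose carrier, was at 64.9, 69.3 and 67.8 CPM in DMSO and 62.3, 62.9 and 63.2 CPM on ZW27941. It was lower in every ZW27941 library and fell by 0.10 on the log2 scale (standard error 0.0278, edgeR quasi-likelihood adjusted p = 0.00824), a call that was lost without DMSO replicate 2 (edgeR adjusted p = 0.0620). SLC2A6 (GLUT6) was not called, with a log2 fold change of −0.0097 (95% interval from −0.13 to 0.11), and the sign turned with library-size scaling alone (0.00029). SLC2A8 (GLUT8) is listed at 0 in every library.

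The hexokinases, which trap glucose in the cell by phosphorylation, moved in opposite directions. HK2, the inducible form that binds mitochondria and the most abundant hexokinase here, was at 396, 426 and 430.4 CPM in DMSO and 372, 374 and 366 CPM on ZW27941. Its ZW27941 libraries were all below the DMSO libraries, with a log2 fold change of −0.17 (standard error 0.0284, edgeR quasi-likelihood adjusted p = 7.95e-05). HK1, the form of most tissues, was at 27.2, 27.5 and 26.9 CPM in DMSO and 29.5, 30.2 and 29.4 CPM on ZW27941 and was higher in every ZW27941 library, with a log2 fold change of 0.13 (standard error 0.0300, edgeR quasi-likelihood adjusted p = 0.00253). HK3, a form found in myeloid cells, was at 17.0, 18.2 and 18.9 CPM in DMSO and 20.5, 21.0 and 22.4 CPM on ZW27941. It also rose without overlap, with a log2 fold change of 0.24 (standard error 0.0413, edgeR quasi-likelihood adjusted p = 1.39e-04). HKDC1, a hexokinase-like gene next to HK1 on chromosome 10, had from 1 to 9 counts per library and was not tested.

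Between the hexokinases, the log2 ratio of HK2 to HK1 counts was 3.87, 3.95 and 4.0 in DMSO and 3.66, 3.63 and 3.64 on ZW27941. This ratio does not depend on the normalization, and it was lower in every ZW27941 library, with a mean difference of −0.30. For this ratio the two-sided exact permutation p was 0.1, the smallest that 3 against 3 libraries allow. The HK3 to HK1 ratio overlapped between the groups (mean difference 0.11, exact permutation p = 0.3).

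At the side branch to glycogen, the phosphoglucomutases also parted. PGM1, the main enzyme that interconverts the glucose phosphates, was at 31.4, 32.4 and 32.3 CPM in DMSO and 34.5, 35.0 and 34.9 CPM on ZW27941. It was higher in every ZW27941 library, with a log2 fold change of 0.12 (standard error 0.0291, edgeR quasi-likelihood adjusted p = 0.00336). PGM2, a related mutase that acts on pentose phosphates, was at 94.8, 90.4 and 95.1 CPM in DMSO and 88.8, 86.3 and 88.5 CPM on ZW27941. Its groups did not overlap, and the log2 fold change was −0.089 (standard error 0.0267, edgeR quasi-likelihood adjusted p = 0.0144), and its call was lost without DMSO replicate 1 (adjusted p = 0.0697), without DMSO replicate 3 (0.0852) or without ZW27941 replicate 2 (0.0758 by edgeR). Relative to PGM1, the log2 ratio of PGM2 was 1.59, 1.48 and 1.56 in DMSO and 1.36, 1.30 and 1.34 on ZW27941, with all ZW27941 libraries lower.

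Further along the pathway, GPI, which turns glucose phosphate into fructose phosphate, was at 641, 669.9 and 662 CPM in DMSO and 559, 565 and 578 CPM on ZW27941. Every ZW27941 library was below every DMSO library, with a log2 fold change of −0.21 (standard error 0.0255, edgeR quasi-likelihood adjusted p = 1.80e-06). The phosphofructokinases, which commit the sugar to glycolysis, were not called. PFKP, the platelet form, was at 219.6, 231 and 223 CPM in DMSO and 229.6, 221 and 224 CPM on ZW27941. The groups overlapped, the log2 fold change was −0.00029 (95% interval from −0.054 to 0.053) and the sign turned with library-size scaling alone (0.0098). PFKL, the liver form, was at 270.4, 284 and 273 CPM in DMSO and 296, 280.3 and 290.5 CPM on ZW27941. Its groups overlapped, and it had a log2 fold change of 0.066 (edgeR adjusted p = 0.0681) and passed the threshold with library-size scaling alone (adjusted p = 0.0365), with no filter on low counts (0.0371), without DMSO replicate 2 (0.0377) and without ZW27941 replicate 2 (0.0436). PFKM, with 179 to 246 counts per library, had a log2 fold change of −0.11 and a wide interval (−0.35 to 0.13). The log2 ratio of PFKL to PFKP was 0.30, 0.30 and 0.29 in DMSO and 0.37, 0.34 and 0.38 on ZW27941, higher in every ZW27941 library (exact permutation p = 0.1, two-sided).

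The enzymes that set the fructose bisphosphate signal, an activator of phosphofructokinase, included 2 called members. PFKFB4, an enzyme that both makes and removes this signal, was at 114, 125 and 124 CPM in DMSO and 98.5, 100.1 and 101 CPM on ZW27941. All ZW27941 libraries were within a narrow band below DMSO, with a log2 fold change of −0.28 (standard error 0.0297, edgeR quasi-likelihood adjusted p = 3.44e-07). PFKFB3, which mostly makes the signal, was at 81.0, 83.0 and 82.6 CPM in DMSO and 80.1, 80.0 and 78.6 CPM on ZW27941. It was lower in every ZW27941 library but was not called, with a log2 fold change of −0.047 (95% interval from −0.10 to 0.0052), and passed the threshold with upper quartile scaling (edgeR adjusted p = 0.0378). TIGAR, a phosphatase known to remove the signal, was at 10.0, 9.13 and 9.41 CPM in DMSO and 12.4, 12.0 and 11.4 CPM on ZW27941. It had the largest rise of all members, a log2 fold change of 0.33 (standard error 0.0496, edgeR quasi-likelihood adjusted p = 3.15e-05), or 25.4%. In GENCODE v29, 45.6% of the exonic bases of TIGAR are shared with other genes on either strand, and the strand setting of the counting is not given in the sources used here. PFKFB2 had from 4 to 9 counts per library and was not tested.

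Aldolase, which splits the sugar, fell in both of its forms, and ALDOC had the largest fall of all members. ALDOC, the form known from brain, was at 118, 133 and 131 CPM in DMSO and 91.8, 95.7 and 98.6 CPM on ZW27941. ALDOA, the main form, was at 2199, 2294 and 2344 CPM in DMSO and 1888, 1883 and 1952 CPM on ZW27941. In both genes every ZW27941 library was below every DMSO library. The log2 fold change was −0.42 for ALDOC (standard error 0.0356, edgeR quasi-likelihood adjusted p = 1.69e-08) as the level fell by 25.2%. For ALDOA it was −0.26 (standard error 0.0280, edgeR quasi-likelihood adjusted p = 5.07e-07) as the level fell by 16.3%. Relative to ALDOA, the log2 ratio of ALDOC was −4.22, −4.11 and −4.16 in DMSO and −4.36, −4.30 and −4.31 on ZW27941, lower in all ZW27941 libraries (exact permutation p = 0.1, two-sided). ALDOA shares 53.5% of its exonic bases with overlapping genes on either strand in GENCODE v29, and reads over such bases may have been left out as ambiguous.

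Next along the pathway, 3 members lie close together on chromosome 12 in GENCODE v29 (GRCh38), GAPDH at chr12:6533927-6538374, TPI1 at chr12:6867119-6870948 and ENO2 at chr12:6913745-6923698, all on the plus strand. TPI1, which interconverts the triose phosphates, was at 701, 724 and 732 CPM in DMSO and 714, 707 and 769.7 CPM on ZW27941. The groups overlapped, and the highest library of all was ZW27941 replicate 3. The log2 fold change was 0.022 (95% interval from −0.040 to 0.084), and it was −0.020 without that library. GAPDH, the dehydrogenase that makes the NADH of glycolysis and the reference gene of the study's quantitative PCR, was at 3962, 4089 and 4122 CPM in DMSO and 3636, 3679 and 3732 CPM on ZW27941. It was lower in every ZW27941 library, with a log2 fold change of −0.14 (standard error 0.0265, edgeR quasi-likelihood adjusted p = 3.43e-04) as the level fell by 9.25%. ENO2, the neuronal form of enolase, was at 87.4, 98.7 and 94.3 CPM in DMSO and 68.9, 74.4 and 72.2 CPM on ZW27941. Every ZW27941 library was lower, with a log2 fold change of −0.38 (standard error 0.0356, edgeR quasi-likelihood adjusted p = 6.63e-08).

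PGK1, which makes the first ATP of the lower pathway, was at 1115, 1155 and 1162 CPM in DMSO and 974, 991 and 1034 CPM on ZW27941. All ZW27941 libraries were below DMSO, and the log2 fold change was −0.19 (standard error 0.0274, edgeR quasi-likelihood adjusted p = 1.31e-05). The mutase that follows was not called. PGAM1 had 548, 546 and 562 CPM in DMSO and 555, 555 and 569 CPM on ZW27941, and these ranges overlapped. Its log2 fold change was 0.020 (95% interval from −0.032 to 0.071), with the opposite sign under upper quartile scaling (−0.0039). PGAM4, an intronless copy of PGAM1 that can share reads with it, had 585 to 794 counts per library and a log2 fold change of 0.076 (95% interval from −0.074 to 0.23). Beside this step, BPGM, which makes bisphosphoglycerate, was not called (−0.041, 95% interval from −0.16 to 0.080), while MINPP1, a phosphatase that can remove it, was at 17.6, 16.7 and 16.7 CPM in DMSO and 18.6, 18.4 and 19.2 CPM on ZW27941. It was higher in every ZW27941 library, with a log2 fold change of 0.14 (standard error 0.0363, edgeR quasi-likelihood adjusted p = 0.00544).

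ENO1, the main enolase, was at 3232, 3361 and 3338 CPM in DMSO and 2760.4, 2852 and 2909 CPM on ZW27941. Its groups did not overlap, with a log2 fold change of −0.22 (standard error 0.0276, edgeR quasi-likelihood adjusted p = 2.92e-06). ENO3, the muscle form, was not called (−0.013, 95% interval from −0.10 to 0.076). In the enolases, the log2 ratio of ENO2 to ENO1 was −5.21, −5.09 and −5.15 in DMSO and −5.32, −5.26 and −5.33 on ZW27941, lower in every ZW27941 library. The log2 ratio of ENO3 to ENO1 was −7.31, −7.25 and −7.24 in DMSO and −7.12, −7.03 and −7.02 on ZW27941, higher in every ZW27941 library (exact permutation p = 0.1, two-sided, for both ratios).

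At the end of the pathway, PKM, pyruvate kinase, whose isoforms are not told apart by counts per gene, was at 1736, 1809 and 1747 CPM in DMSO and 1627, 1667 and 1728 CPM on ZW27941. ZW27941 replicate 3 was just below the lowest DMSO library, and the log2 fold change was −0.076 (standard error 0.0277, edgeR quasi-likelihood adjusted p = 0.0418). That call was lost in all but 1 of the fits that left out a library: the adjusted p by edgeR was 0.0560 without DMSO replicate 1, 0.239 without DMSO replicate 2, 0.0896 without DMSO replicate 3, 0.168 without ZW27941 replicate 1 and 0.137 without ZW27941 replicate 2. With library-size scaling alone it was 0.0574.

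LDHA, the lactate dehydrogenase form that favours lactate, was at 1464, 1487 and 1508 CPM in DMSO and 1357, 1404 and 1419 CPM on ZW27941. It was lower in every ZW27941 library, with a log2 fold change of −0.093 (standard error 0.0260, edgeR quasi-likelihood adjusted p = 0.00902), and the call was lost without DMSO replicate 3 (edgeR adjusted p = 0.0708). LDHB, the form that favours pyruvate, was at 1094, 1077 and 1106 CPM in DMSO and 986, 1059 and 1086 CPM on ZW27941. Its ZW27941 libraries were spread widely and its log2 fold change of −0.066 was not called (edgeR adjusted p = 0.104), but without ZW27941 replicate 3 it was −0.10 (edgeR adjusted p = 0.00399). It also passed with upper quartile scaling (edgeR adjusted p = 0.0294). The log2 ratio of LDHB to LDHA overlapped between groups, with a mean difference of 0.026 (exact permutation p = 0.4). LDHB shares 33.4% of its exonic bases with another gene in GENCODE v29.

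Of the carriers for lactate, SLC16A3 (MCT4), the exporter of glycolytic cells, was at 252, 265 and 263 CPM in DMSO and 253, 241 and 247 CPM on ZW27941. The ranges overlapped, and the log2 fold change was −0.075 (standard error 0.0267, edgeR quasi-likelihood adjusted p = 0.0374). The call was lost without DMSO replicate 2 (adjusted p = 0.173), without DMSO replicate 3 (0.142) or without ZW27941 replicate 2 (0.192), and with library-size scaling alone (0.0735, all by edgeR). SLC16A1 (MCT1), a carrier that works in both directions, was at 80.9, 78.1 and 80.0 CPM in DMSO and 81.0, 82.9 and 84.9 CPM on ZW27941. It was higher in every ZW27941 library but was not called, with a log2 fold change of 0.057 (edgeR adjusted p = 0.110).

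The members of each step were also summed, as CPM per kilobase, to follow the pathway from uptake to export. In 9 of the 13 steps the totals of all ZW27941 libraries lay below all DMSO libraries, where 19.9% of single genes tested did so, and in the 4 others the totals overlapped. That share is of single genes at any level and is no matched baseline for totals. The steps of GPI, TPI1, GAPDH, PGK1 and PKM hold 1 gene each. In DMSO, ALDOA made up 899 of 964 CPM per kilobase for aldolase, and ENO1 1299 of 1346 for enolase. The totals thus largely repeat the values of members given above and add no separate evidence. The aldolase total was 927, 972 and 991 in DMSO and 791, 792 and 820.0 on ZW27941 (CPM per kilobase), a mean difference of −16.9%. The mean difference was −14.3% for enolase, −11.7% for the glucose carriers and −7.58% for the hexokinases. The totals that overlapped were those of phosphofructokinase, triose phosphate isomerase, phosphoglycerate mutase and monocarboxylate transport. Their mean differences were 1.64%, 1.55%, 1.43% and −2.75%. The exact permutation p was 0.1 for each of the 9 steps, the smallest that this design allows.

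**Figure D3:**
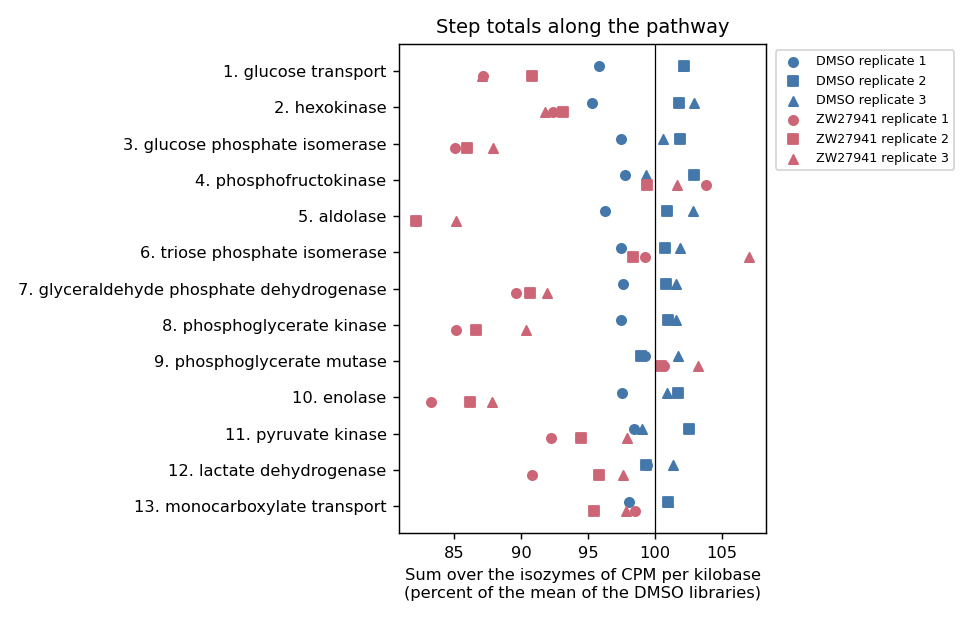
Each row is 1 of the 13 steps from glucose entry to lactate exit, and each point is the sum over the isozymes of CPM per kilobase in 1 library, as a percent of the mean of the DMSO libraries (blue DMSO, red ZW27941). Aldolase and enolase have the lowest red points, and the red and blue points of phosphofructokinase, triose phosphate isomerase, phosphoglycerate mutase and monocarboxylate transport overlap.

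Of 15 isozyme pairs compared, the log2 ratio was lower in every ZW27941 library in 5 (HK2 to HK1, PGM2 to PGM1, ALDOC to ALDOA, ENO2 to ENO1 and SLC2A3 to SLC2A1), higher in 2 (ENO3 to ENO1 and PFKL to PFKP) and overlapping in 8. The share without overlap was near the 41.6% found among all single genes tested, so the count is no result about isozymes. In 3 of these 8 pairs 1 gene (HKDC1 or PFKFB2) had fewer than 10 counts in every library. The log2 ratio of SLC2A3 to SLC2A1 was 2.52, 2.59 and 2.58 in DMSO and 2.37, 2.49 and 2.41 on ZW27941. No pair can reach a p under 0.1 in an exact test of 3 against 3 libraries, and adjustment over the pairs can only raise it.

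**Figure D4:**
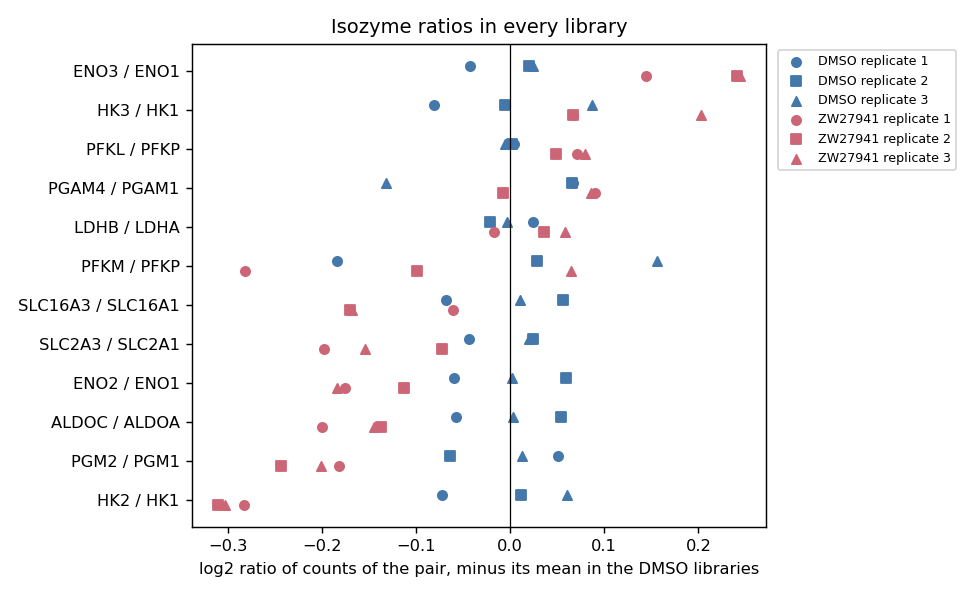
Each row is 1 of 12 isozyme pairs, and each point is the log2 ratio of their counts in 1 library minus the mean of that ratio in the DMSO libraries (blue DMSO, red ZW27941). Pairs with HKDC1 or PFKFB2 are left out. The red points of HK2 over HK1 lie to the left of the blue points of that pair, and those of ENO3 over ENO1 to the right.

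Genes around the pathway moved in both directions. In lists of 97 such genes, 80 were tested, of which 18 fell and 16 rose (edgeR adjusted p under 0.05), with a median log2 fold change of −0.018. Over all genes tested 13.8% were lower, 16.3% were higher and 30.1% were called, and the counts of each short list that follows are to be read against these shares. Of 12 genes tested for the entry of pyruvate into mitochondria, 5 fell and the other 7 were not called, with a median log2 fold change of −0.11. Among them, PDP2, a phosphatase that activates pyruvate dehydrogenase, was at 53.3 ± 0.284 CPM in DMSO and 46.3 ± 1.81 CPM on ZW27941 (SD, n = 3), with a log2 fold change of −0.20 (standard error 0.0297, edgeR quasi-likelihood adjusted p = 2.27e-05). MPC2, a subunit of the mitochondrial pyruvate carrier, changed by −0.18 on the log2 scale (standard error 0.0304, edgeR quasi-likelihood adjusted p = 1.35e-04). Of 8 genes of the pentose phosphate path, 2 fell and 1 rose: the one that rose was PGD, which makes NADPH (0.28), and TKT, transketolase, fell (−0.15). Of 9 genes of the NADH shuttles, 3 fell, among them the malate dehydrogenases MDH2 (−0.11) and MDH1 (−0.090). The call of MDH1 was lost without ZW27941 replicate 1 (edgeR adjusted p = 0.0590).

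Of 11 glycogen genes, 3 fell and 1 rose, a share called near the 30.1% of all genes. GBE1, the glycogen branching enzyme, was at 142 ± 5.58 CPM in DMSO and 117 ± 1.54 CPM on ZW27941 (SD, n = 3), with a log2 fold change of −0.27 (standard error 0.0278, edgeR quasi-likelihood adjusted p = 2.33e-07), and PHKA2, a subunit of phosphorylase kinase, was −0.10. Genes of gluconeogenesis, which runs glycolysis in reverse, had 3 of 6 higher and 1 lower, with a median log2 fold change of 0.13. PC, pyruvate carboxylase, changed by 0.16 on the log2 scale (standard error 0.0326, edgeR quasi-likelihood adjusted p = 7.02e-04) and FBP1, at 0.851 ± 0.0310 CPM in DMSO and 1.18 ± 0.0602 CPM on ZW27941 (SD, n = 3), by 0.47. Of 7 genes of the hexosamine and mannose branches, 3 rose and 1 fell, with GNPNAT1 at 0.19 and UAP1 at 0.15 on the log2 scale, both of which act in the making of UDP-linked amino sugars.

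Of 9 other carriers tested, 1 fell and 2 rose, which is also near the 30.1% called among all genes. The one that fell, SLC2A14, is a close copy of SLC2A3 that can share reads with it. It was at 12.8, 12.7 and 11.4 CPM in DMSO and 8.89, 9.67 and 9.00 CPM on ZW27941, lower in every ZW27941 library, with a log2 fold change of −0.42 (standard error 0.0523, edgeR quasi-likelihood adjusted p = 2.70e-06). SLC2A9, a urate carrier, rose (0.16). Of 6 other isozymes and related enzymes tested, 2 rose and the other 4 were not called. PGP, which clears side products of glycolysis, changed by 0.29 on the log2 scale (standard error 0.0385, edgeR quasi-likelihood adjusted p = 6.46e-06), and ADPGK, an ADP-dependent glucokinase, by 0.10, a call lost without DMSO replicate 3 (edgeR adjusted p = 0.0532).

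Of 12 transcription factors known to act on glycolytic genes, 2 fell and 4 rose. MYC was at 386, 372 and 378 CPM in DMSO and 339, 339.6 and 344 CPM on ZW27941. It was lower in every ZW27941 library, with a log2 fold change of −0.15 (standard error 0.0243, edgeR quasi-likelihood adjusted p = 5.78e-05). PPARGC1A, a coactivator of mitochondrial genes, was at 1.24 ± 0.0224 CPM in DMSO and 2.02 ± 0.209 CPM on ZW27941 (SD, n = 3) and rose by 0.71 on the log2 scale. HIF1A, named after its values were seen, rose by 0.14 on the log2 scale (standard error 0.0280, edgeR quasi-likelihood adjusted p = 5.33e-04). These are levels of transcripts, and the activity of the factors was not measured.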

How the data were processed

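RNA sequencing was carried out on MOLM13 cells kept 24 h in DMSO or ZW27941 (1 μM), with 3 libraries per group. For each library the authors deposited whole-number counts by gene symbol. The submitters' processing notes name HISAT2, SAMtools 1.19.2, HTSeq 2.0.3 and build hg38. The annotation and strand setting are not given in the sources used here. The tallies of reads assigned to no gene, 37.4% to 39.8% of the reads, were left out.

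Differences were tested with edgeR 4.0.16 under R 4.3.3 (TMM, filterByExpr, quasi-likelihood test), with Benjamini-Hochberg adjustment over 20399 genes and a threshold of 0.05. The standard error is the absolute log2 fold change over the square root of F. Single values were compared by exact permutation tests over libraries (scipy 1.17.1). DESeq2 1.42.0 was an alternative, beside other normalizations, filters, a replicate block and each library left out. The edgeR test of single genes was also run on simulated counts, and the step totals and isozyme ratios were not. Lengths and overlaps came from GENCODE v29 (GRCh38) and promoters from RefSeq.

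The members and lists were chosen with earlier results of these data known. All members were named, with the 2 called genes of lowest p in each list of neighbours and the 3 pseudogenes of highest mean level. RefSeq proteins were not used here, and the values of 1 listed neighbour are not reported here.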

Additional observations from a re-analysis of the deposited data

How the results depend on the processing

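Over the other normalizations, tests and filters the lower members numbered 13 to 18 and the higher ones 5 or 6. In those fits 2481 to 3643 of all genes were lower and 2644 to 3584 higher. The lower share of the called was 68.4% to 78.3% of members and 40.9% to 57.9% of all genes. With each library left out in turn, 11 to 17 members were lower and 5 or 6 higher. The lower share was then 66.7% to 77.3% of called members and 44.1% to 47% of all called genes. At an adjusted p under 0.01, 12 members were lower and 5 higher. At that threshold 4005 of all genes were called (19.6%, with 8.46% lower and 11.2% higher). Signs turned only in members, step totals and pairs with small or noisy changes. With library size only, SLC2A6 was 0.00029 and PFKP 0.0098, and with no filter PFKP was 0.0052. With upper quartile scaling TPI1 was −0.0013, as was its step total, PGAM1 was −0.0039 and the step total phosphoglycerate mutase −0.0029. With 1 library left out, the log2 fold change ran from −0.040 to 0.020 for SLC2A6, from −0.016 to 0.021 for PFKP, from −0.020 to 0.044 for TPI1 and its step total, and from −0.051 to 0.040 for ENO3. The ratio differences ran from −0.17 to 1.47 for HKDC1 to HK1, from −0.087 to 0.57 for PFKFB3 to PFKFB2, from −0.30 to 0.33 for PFKFB4 to PFKFB2 and from −0.011 to 0.089 for PGAM4 to PGAM1. The cause was not tested. No pairing by replicate number was seen over all genes tested, where deviations of same-numbered libraries correlated by −0.0136, 0.0138 and 0.0324. Each gene had the same weight in this check, so it could miss a pairing that touches few genes, and a shared batch is not excluded. With the replicate number as a block, 15 members were lower and 5 higher. In that fit 34 neighbours were called, and 6010 genes or 29.5% of all tested (13.6% lower and 15.9% higher). SLC2A1 was no longer called with the block (adjusted p = 0.0606 by edgeR).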

Other observations

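The letters GGACT, the commonest form of the sequence that METTL3 methylates, were counted in the longest GENCODE v29 transcript of each gene. The median was 1.06 per kilobase in the 16 members that fell, 1.13 in the 5 that rose, 1.39 in the 12 not called and 0.901 over 15781 genes tested. TPI1, which was not called, held the most per kilobase of all members (3.40), ALDOA and TIGAR held 1 copy each, and BPGM, LDHB and PGM2 held none. These counts say nothing of methylation, which was not measured here.

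Several members have processed pseudogenes to which reads could be assigned. Of 105 such symbols in the counts, 17 passed the expression filter, and 1 of these was lower (PGAM1P6) and 1 was higher (GAPDHP22), both named after their values were seen (edgeR adjusted p under 0.05). The 3 with the highest mean level were TPI1P1, with a log2 fold change of −0.034, GAPDHP1 (−0.083) and LDHAP4 (−0.19), none of which was called. The pseudogenes of GAPDH together reached 0.202% of the level of GAPDH in DMSO and 0.220% on ZW27941, and those of TPI1 1.48% and 1.43% of TPI1.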
